A study of Mus musculus with 217 samples.

Results

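The chondrocytes with the least Spry2 transcript were compared with those with the most, in single cells of the growth plate, the cartilage in which long bones grow. The cells came from the microdissected tibial plate of C57/BL wild-type animals (postnatal day 7), and their 217 deposited columns carry identical labels, with no treatment, animal, litter or plate named, so that all cells are 1 sample of 1 group. The members were chosen by their measured levels of Acan and Spry2. Near-identical columns were averaged, 1 mixed column was dropped, and the profiles with Acan, which encodes the cartilage proteoglycan aggrecan, at 5 or more on the log2 scale were ranked by Spry2. The ranking gave 4 groups of 44 profiles, called lowest, lower middle, upper middle and highest below. The 44 lowest (Spry2-low) and the 44 highest (Spry2-high), 88 profiles in all, are compared. Because the members were ranked on a measured gene within 1 sample, every difference is a description with no test. Each SD is a spread over profiles and does not measure the error of a mean. Differences are Spry2-high minus Spry2-low on the log2(value + 1) scale, which understates the change of genes near 0. A gene counted as detected in a profile from a back-transformed value of 1 upwards. A level of 0 means only that the gene is listed at 0.

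Spry2 encodes a Sprouty protein, an inhibitor that growth factors such as FGF switch on through the RAS-ERK kinase cascade and that then restrains the same cascade. Its transcript is therefore widely used as a readout of recent ERK signalling. In the growth plate, chondrocytes leave a resting zone, divide in flat columns, and become prehypertrophic and then hypertrophic before bone replaces them. FGF signals through FGFR3 slow division in the columns and act on the entry into hypertrophy. C-type natriuretic peptide, acting on the receptor NPR2, opposes the ERK arm of FGF signalling. The comparison takes Spry2 as such a readout and sets it against the genes of each zone.

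Spry2 ranged widely in chondrocytes that all carried aggrecan. Over all 4 groups its mean level was 6.32 ± 2.51 (SD over profiles), with a median of 7.13. In the Spry2-low group the lowest level was 0, the median 2.61 and the highest 5.74, and 13 of the 44 profiles were listed at 0. In the Spry2-high group the lowest level was 7.95, the median 8.47 and the highest 9.95. The distribution had a long lower tail, and the cell next above the low group, at 5.75, was nearly level with the highest one inside it. At the other limit the profile next below the high group stood at 7.93. Repeated columns give only a partial measure of how firmly a cell is placed, since the labels do not say which steps were repeated. In the 23 sets of near-identical columns, Spry2 had an SD between repeats of 0.76. In 15 of these sets all columns lay in the same range (low, middle or high), and 0 sets had columns in both the low and the high range. Only 3 of the sets fell in the low group and 3 in the high group, so most concern the middle groups. The largest Spry2 range within a set was 3.26. The limit on Acan lay in a gap, since the highest level below it was 2.91 and the lowest above it 6.67. The 11 profiles left out by this limit had Spry2 levels of 0 to 6.39 (median 2.92).

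**Figure D1:**
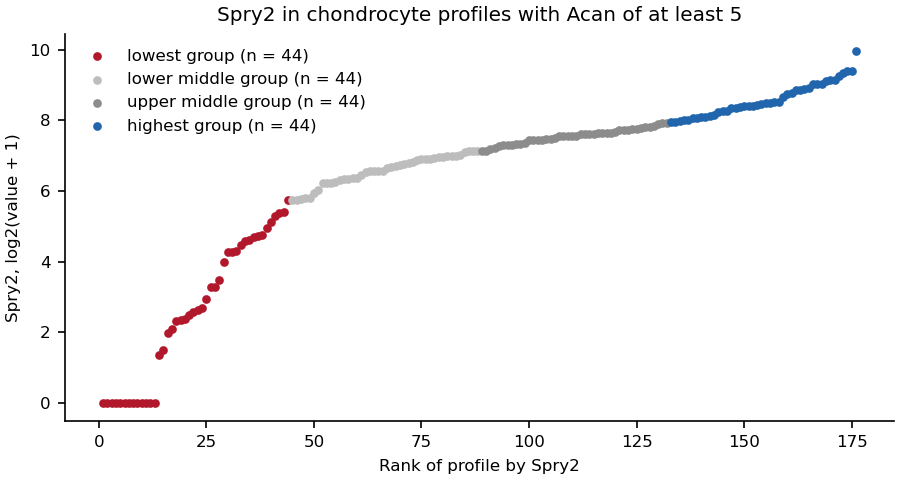
Spry2 level (vertical axis, log2(value + 1)) of the chondrocyte profiles against their rank by Spry2 (horizontal axis), 1 point per profile, coloured by group. The lowest group runs from 0 to 5.74 and holds 13 profiles at 0, whereas the highest group spans only 7.95 to 9.95.

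The promoters of 3 genes are shown because the comparison turns on them: Spry2 ranked the cells, Inhba had the largest difference towards Spry2-high cells, and Col10a1 the largest towards Spry2-low cells. Each is the 250 bases before the annotated start in RefSeq (GRCm38.p6, the same assembly as mm10), 5′ to 3′ on the strand of the gene. They lie at chr14:105896820-105897069 (minus strand) for Spry2, chr13:16011601-16011850 (plus strand) for Inhba and chr10:34389731-34389980 (plus strand) for Col10a1. Capitals mark GGAA, the core bound by ETS factors, through which ERK acts on many of its targets, and TATAAA, the TATA box, each searched on both strands with overlapping matches counted.
Spry2: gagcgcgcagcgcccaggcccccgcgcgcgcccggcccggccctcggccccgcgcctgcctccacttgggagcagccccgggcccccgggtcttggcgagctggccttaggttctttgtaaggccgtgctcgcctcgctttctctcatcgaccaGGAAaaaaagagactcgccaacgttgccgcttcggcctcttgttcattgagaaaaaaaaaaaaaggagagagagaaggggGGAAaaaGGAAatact
Inhba: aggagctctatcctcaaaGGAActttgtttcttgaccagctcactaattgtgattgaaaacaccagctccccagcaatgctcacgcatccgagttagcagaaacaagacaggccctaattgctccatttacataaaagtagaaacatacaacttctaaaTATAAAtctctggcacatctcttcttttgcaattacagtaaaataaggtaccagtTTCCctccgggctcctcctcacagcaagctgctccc
Col10a1: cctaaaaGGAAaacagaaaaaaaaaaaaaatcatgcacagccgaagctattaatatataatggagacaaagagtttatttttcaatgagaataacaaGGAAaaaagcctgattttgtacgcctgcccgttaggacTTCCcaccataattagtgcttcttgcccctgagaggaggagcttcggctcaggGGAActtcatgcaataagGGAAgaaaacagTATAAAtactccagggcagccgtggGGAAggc
The Spry2 window held 3 matches to GGAA and 0 to TATAAA, that of Inhba 2 and 1, and that of Col10a1 6 and 1. Of 32851 promoter windows of this length, 93.4% held at least 1 GGAA match (median 3) and 12.4% a TATAAA match. A match is a letter pattern only, and the GGAA core is so common that its presence does not set these promoters apart.

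Spry2-low chondrocytes were rich in genes of late chondrocytes. Col10a1, the collagen of hypertrophic cartilage, had in Spry2-low profiles a lowest level of 0, a median of 10.63 and a highest of 12.82, with 9.47 ± 3.26 (SD, n = 44 profiles) on average. In Spry2-high profiles the lowest was 0, the median 5.78 and the highest 11.81, with a mean of 5.23 ± 4.19. The ranges overlapped widely, but 10 Spry2-low profiles lay above every Spry2-high one, and the difference of means was -4.24, the lowest of all genes that met the detection limit for ranking. Col10a1 was detected in 41 of 44 Spry2-low profiles (93.2%, 95% exact Clopper-Pearson interval 81.3 to 98.6%) and in 30 of 44 Spry2-high ones (68.2%, 52.4 to 81.4%). These intervals cover counting error only.

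Other genes of this sequence had the same direction. Ihh, which encodes the hedgehog ligand that prehypertrophic cells secrete, was found in 27 Spry2-low profiles (61.4%, 45.5 to 75.6%) and in 11 Spry2-high ones (13.2 to 40.3%). Its level in Spry2-low profiles ran from 0 to 8.52 (median 3.23), and in Spry2-high profiles from 0 to 6.71 (median 0), a difference of means of -2.21. Ibsp, which encodes bone sialoprotein, a protein of mineralizing matrix, was detected in 24 Spry2-low (54.5%, 38.8 to 69.6%) and 8 Spry2-high profiles (18.2%, 8.19 to 32.7%). Its level ran from 0 to 12.58 (median 1.56) in the former and from 0 to 6.55 (median 0) in the latter, a difference of -3.01. In both genes most Spry2-high profiles were listed at 0, and it was the upper part of the Spry2-low range that lay apart: 8 Spry2-low profiles exceeded every Spry2-high one for Ihh and 12 for Ibsp.

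The co-occurrence of these markers was concentrated at low Spry2. Ihh and Ibsp were detected together in 20 profiles, and 18 of these were Spry2-low, whereas the lower middle, upper middle and highest groups held 0, 1 and 1. Of the 37 profiles with Ibsp, 24 were Spry2-low, 2 and 3 lay in the middle groups, and 8 were Spry2-high, 7 of them without Ihh. Inside the Spry2-low group, 9 profiles had Ihh without Ibsp, 6 had Ibsp without Ihh and 11 had neither. The 11 with neither had a Col10a1 level of 6.90 ± 3.94 (SD, n = 11 profiles) and a Sox9 level of 7.77 ± 1.91. The 18 with both reached 11.05 ± 1.32 for Col10a1 and 6.66 ± 1.26 for Sox9. The Spry2-low group was thus mixed, with cells that carried the late markers beside cells that carried neither. More genes were detected in the 18 profiles with both markers (mean 4062 ± 437 SD) than in the 11 with neither (3095 ± 892 SD), and the part of this in their differences was not tested.

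Within the group, the late markers and Inhba had similar means whether Spry2 was listed at 0 or merely low. The 13 profiles at 0 had Col10a1 at 9.30 ± 2.62 (SD, n = 13 profiles) and the 31 others at 9.55 ± 3.53. Ihh was 3.85 ± 3.45 and 3.19 ± 2.95, Ibsp 3.62 ± 4.36 and 3.52 ± 4.30, and Inhba 2.63 ± 3.18 and 2.50 ± 3.54 in the same order. Each of these gaps was smaller than the SD over profiles. Acan was 10.08 ± 0.51 and 9.47 ± 0.74 (SD, n = 13 and 31 profiles), a gap larger than the first SD, and Sdc4 was 10.08 ± 1.44 and 10.86 ± 1.05. The 13 profiles detected 3607 ± 843 genes and the others 3591 ± 705, and the 13 included the profile with the fewest genes, 1326. Whether a level of 0 reflects a missed transcript was not tested. With these 13 profiles left out and the groups drawn again from the rest, the difference was -3.69 for Col10a1, -2.18 for Ibsp and -1.39 for Ihh.

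**Figure D2:**
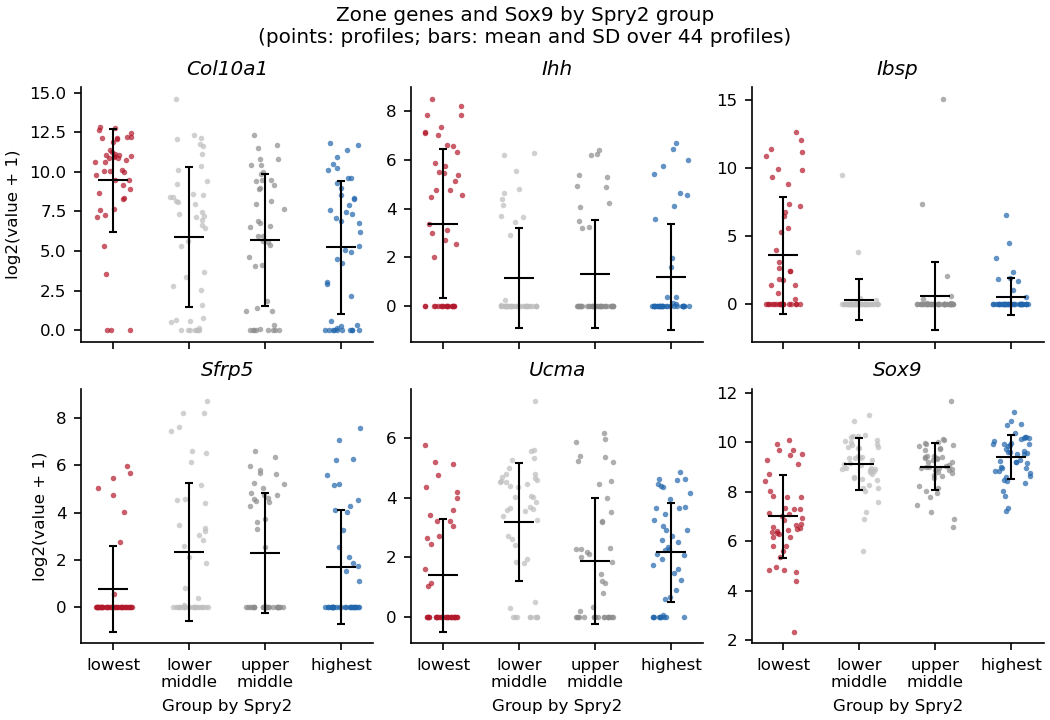
Levels of Col10a1, Ihh, Ibsp, Sfrp5, Ucma and Sox9 (vertical axes, log2(value + 1)) in the 4 Spry2 groups (horizontal axis), with 1 point per profile and bars for the mean and SD over 44 profiles. In each panel except that of Ucma, the mean of the lowest group lies apart from the means of the other groups, which are closer together, while the SDs overlap.

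As groups, the lists of late genes lay on the Spry2-low side. Over all 9739 genes the median difference was -0.09. Of them, 3926 were higher and 5811 lower in Spry2-high profiles, which is the background for counts of higher or lower genes in a list. A difference of at least 1 was found in 389 genes towards Spry2-high (3.99% of all genes) and in 583 towards Spry2-low (5.99%), or 9.98% in either direction. Among the 5380 genes detected in at least 20% of profiles these shares were 7.16%, 10.1% and 17.2%. Of 11 measured prehypertrophic genes, 10 were lower in Spry2-high profiles and 5 by at least 1, with a median difference of -0.47. They were Ihh, Mef2c (-1.84), a transcription factor that drives hypertrophy, Wwp2 (-1.63), a ubiquitin ligase expressed in cartilage, Runx3 (-1.40), a RUNX transcription factor, and Bmp6 (-1.13), a BMP ligand. Without the profiles with Col1a1 or Ibsp at 5 or more, described below, the difference of Bmp6 was -0.32. The exception was Runx2, the RUNX factor of hypertrophy and bone formation, with a difference of 0.32 and detection in 3 and 6 profiles. Panx3, a channel gene of prehypertrophic cells, was at 10.38 ± 2.40 in Spry2-low and 10.06 ± 1.22 in Spry2-high profiles (SD, n = 44 profiles each), a gap smaller than either SD. The median of the prehypertrophic list was -1.13 when only its 9 members detected in at least 20% of profiles were counted.

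Of 13 measured hypertrophic genes, 10 were lower in Spry2-high profiles and 4 by at least 1, with a median of -0.70. Beside Col10a1 and Ibsp these were Spp1 (-1.74), which encodes osteopontin, and Scin (-1.04), an actin-severing protein. Spp1 was detected in 18 Spry2-low and 10 Spry2-high profiles. Mmp13, a collagenase of the latest cells, was detected in 7 and 3, with a difference of -0.84 that was 0.23 without the profiles with Col1a1 or Ibsp at 5 or more. The cell cycle inhibitors of this list pointed the same way, with Cdkn1a at 4.44 ± 1.54 and 3.67 ± 1.15 and Cdkn1c at 1.04 ± 1.45 and 0.34 ± 0.69 (SD, n = 44 profiles each, Spry2-low first). Without the same profiles the difference of Cdkn1a, -0.77, was -0.30, that of Spp1 was -0.29 and the median of the list was -0.17. This setting limits Ibsp itself, a member of the list, and the median of -0.17 was the difference of Ibsp there.

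Genes listed for the resting zone divided. Of 11 measured members, 7 were lower in Spry2-high profiles (5811 of 9739 over all genes) and 0 were higher by at least 1, while 3 were lower by at least 1. The median difference was -0.08, and it was -0.46 over the 7 members detected in at least 20% of profiles, where the median of all such genes was -0.12. Cd200, a membrane protein used to sort skeletal stem cells, was the second lowest gene of the whole ranking: its median was 6.15 in Spry2-low and 0 in Spry2-high profiles, with a difference of -3.37. Nt5e, the ectonucleotidase CD73, had a difference of -1.62, and Foxa2, a forkhead factor also linked to hypertrophy, of -1.51. Sfrp5, a secreted WNT antagonist, pointed the other way. It was detected in 7 Spry2-low profiles (15.9%, 6.64 to 30.1%) and in 18 Spry2-high ones (40.9%, 26.3 to 56.8%), with a difference of 0.91, and it was most frequent in the middle groups (20 and 21 of 44). Ucma, a secreted cartilage protein, was detected in 18 and 30 profiles, with a difference of 0.78, and its highest mean, 3.17, was in the lower middle group. The difference was 0.15 for Sfrp5 and -0.24 for Ucma without profiles with Col1a1 or Ibsp at 5 or more.

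Genes of flat columnar and general cartilage divided. Of 12 columnar genes, 6 were higher and 6 lower in Spry2-high profiles, with a median of -0.005. Of the 22 cartilage matrix genes 12 were higher, beside 3926 of all 9739 genes. The matrix median was 0.46, or 0.16 without the profiles with Col1a1 or Ibsp at 5 or more. Sox9, the transcription factor that specifies chondrocytes, had in Spry2-low profiles a lowest level of 2.34, a median of 6.80 and a highest of 10.11. In Spry2-high profiles these were 7.24, 9.55 and 11.21. The ranges overlapped, yet 27 of 44 Spry2-low profiles lay below the lowest Spry2-high one, and the difference of means was 2.40. Prelp (1.53), a leucine-rich repeat proteoglycan, and Epyc (1.12), a small proteoglycan of cartilage, were also higher with Spry2. Comp, a cartilage oligomeric matrix protein, was lower (-1.14), as was Xylt1 (-1.06), an enzyme that starts proteoglycan chains. Without the profiles with Col1a1 or Ibsp at 5 or more the differences were 0.89 for Prelp, 0.62 for Epyc and -0.66 for Comp. Acan itself, on which the profiles were selected, was 9.65 ± 0.73 in Spry2-low and 9.02 ± 0.62 in Spry2-high profiles (SD, n = 44 profiles each). Col11a1, a cartilage fibril collagen, was 10.93 ± 0.66 and 11.41 ± 0.36. Both groups thus carried these genes, although 1 Spry2-low profile was listed at 0 for 7 of 15 cartilage genes looked up after the values were seen. Col2a1, the main collagen of cartilage and a defining gene of chondrocytes, was listed low in both groups, detected in 14 and 10 profiles with a highest level of 3.14. This lies far below Col11a1 in the same groups. Quantifier and annotation are not given, so whether the listed values reflect the level of the Col2a1 transcript cannot be told.

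The other feedback genes of the ERK cascade followed Spry2 only in part. Of 28 genes listed as ERK feedback inhibitors and targets, 19 were measured. Of these, 12 were higher in Spry2-high profiles, beside 3926 of all 9739 genes. A difference of at least 1 was found in 4 towards Spry2-high and in 2 towards Spry2-low, beside 3.99% and 5.99% of all genes. The median of the list was 0.30, or 0.14 without the profiles with Col1a1 or Ibsp at 5 or more. Spry4, the Sprouty paralog, was detected in 12 Spry2-low and 23 Spry2-high profiles. Its level ran from 0 to 6.91 (median 0) in the former and from 0 to 6.48 (median 1.31) in the latter, with a difference of 1.09. Zeros were common on both sides, 32 and 21 of 44, and the ranges overlapped almost fully.

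Dusp6, the phosphatase that inactivates ERK, ran from 0 to 6.97 (median 1.76) in Spry2-low and from 0 to 8.37 (median 3.57) in Spry2-high profiles. The means were 2.51 ± 2.53 and 3.45 ± 2.79 (SD, n = 44 profiles each). This gap of 0.94 was smaller than either SD. The same held for Bmp6 (-1.13, SDs of 3.10 and 2.75) and Cdkn1a (-0.77) among the late genes. The difference of Dusp6 was 0.46 without the 10% of profiles with fewest genes. Spred1, a Sprouty-related inhibitor of RAS, was detected in 35 profiles of each group, with a difference of 0.84 that was 0.20 without the profiles in which Spry2 was listed at 0. Spred3, of the same family, was detected in 0 of 44 Spry2-low profiles, which allows a share of up to 6.82% taken as 3 profiles of 44 (8.04% by the exact interval), and in 10 of 44 Spry2-high ones.

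Further ERK targets differed in size and direction. Ier3, an early response gene, had the largest difference of the list, 2.44: its median was 5.47 in Spry2-low and 7.27 in Spry2-high profiles, and it was listed at 0 in 11 and 1. Ccnd1, the gene of cyclin D1, differed by 1.12 (medians 0 and 3.57) and Fosl1, an AP-1 subunit, by 1.03. Etv5, an ETS factor that FGF signalling induces, was detected in 9 and 14 profiles (difference 0.36), and Phlda1, another target, in 27 and 30 (0.42). Egr1, an immediate target of ERK, was nearly level, at 8.87 ± 1.95 and 8.73 ± 1.73. Dusp7 (-1.36), a phosphatase of the Dusp6 family, and Egr2 (-1.16), a relative of Egr1, were higher in Spry2-low profiles. Across all 4 groups, whose profiles are cells of 1 sample, Spearman's rho with Spry2 was 0.15 for Spry4, 0.11 for Dusp6 and 0.10 for both Spred1 and Etv5. Spry1, Etv4, Fgf2, Fgf18, Fgfr1, Fgfr2 and Fgfrl1 were not analysed here.

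**Figure D3:**
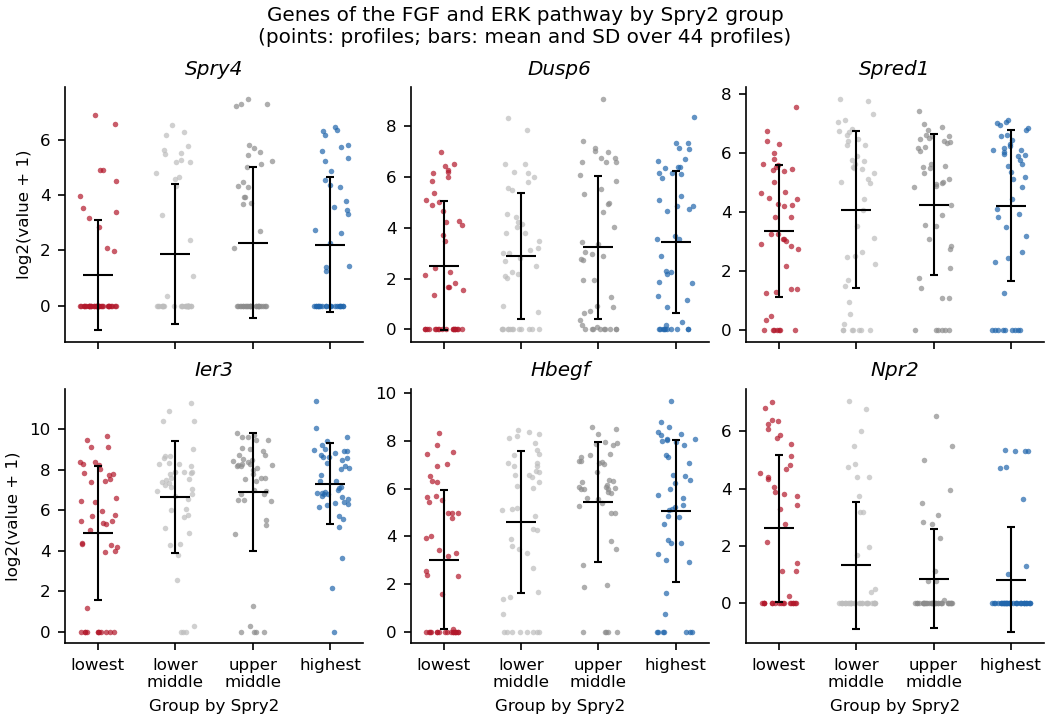
Levels of Spry4, Dusp6, Spred1, Ier3, Hbegf and Npr2 (vertical axes, log2(value + 1)) in the 4 Spry2 groups (horizontal axis), with 1 point per profile and bars for the mean and SD over 44 profiles. Means of Spry4, Ier3 and Hbegf are lowest in the lowest group and that of Npr2 is highest there, with wide overlap in every panel.

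The receptor gene Fgfr3 was seen mostly where Spry2 was low, and Npr2 more often there than in any other group. Fgfr3 was detected in 11 of 44 Spry2-low profiles (interval 13.2 to 40.3%) and in 0 of 44 Spry2-high ones, which allows a share of up to 6.82% by the same measure (8.04% by the exact interval). The middle groups held 1 profile each, so that 11 of the 13 chondrocyte profiles with Fgfr3 were Spry2-low. Its highest level was 3.87, in a Spry2-low profile, and the difference of means was -0.58 (-1.47 with a pseudocount of 0.1). Fgfr3 was thus listed at low levels throughout. Spry2-low profiles also had more genes detected (mean 3596 against 3397 in Spry2-high ones), and the part of this in the Fgfr3 counts was not tested. Npr2, the receptor of C-type natriuretic peptide, was detected in 26 Spry2-low and 9 Spry2-high profiles, with 13 and 10 in the lower and upper middle groups. Its level ran from 0 to 7.02 (median 2.46) in the former and from 0 to 5.34 (median 0) in the latter, with 9 Spry2-low profiles above every Spry2-high one and a difference of -1.78 (-1.12 without the profiles with Col1a1 or Ibsp at 5 or more). Prkg2, the cGMP-dependent kinase downstream of NPR2, pointed the other way, with levels of 6.47 ± 1.93 and 7.44 ± 1.44 (SD, n = 44 profiles each).

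Among proteoglycans that present FGF to its receptors, Sdc4 stood out. This syndecan ran from 6.72 to 12.99 (median 10.75) in Spry2-low and from 11.41 to 13.95 (median 12.64) in Spry2-high profiles. Of the Spry2-low profiles, 34 of 44 lay below the lowest Spry2-high one, and the difference was 1.98. The other members of the ligand and receptor list stayed within 1 of each other in the 2 groups, with a median of -0.06 over 13 measured genes. Among ligands and receptors of other pathways that feed ERK, Hbegf, an EGF receptor ligand, was higher with Spry2 (2.04, detected in 26 and 36 profiles), as was Nrp1 (1.58), a semaphorin and VEGF co-receptor. Irs1 (-1.55), an adaptor of the insulin and IGF receptors, was lower. Of the 13 measured genes of these other pathways, 10 had a difference below 0, beside 5811 of all 9739 genes. Among the 7 detected in at least 20% of profiles, 3 lay above 0 and 4 below. The median of the 13 was -0.28, or -0.12 without the profiles with Col1a1 or Ibsp at 5 or more and -0.05 with 88 profiles at each end. The difference was 1.32 for Hbegf and 0.76 for Nrp1 without the profiles in which Spry2 was listed at 0, and -0.72 for Irs1 without those with Col1a1 or Ibsp at 5 or more.

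The kinases and adaptors of the cascade itself showed no common direction. Of 31 genes, 15 were higher and 16 lower in Spry2-high profiles (median -0.04), beside 3926 and 5811 of all 9739 genes. Towards Spry2-high, Lamtor3 (1.69), a scaffold that holds MEK and ERK at late endosomes, Braf (1.51), Nras (1.27) and Rras (1.11) differed by at least 1, and Rras2 (-1.17) towards Spry2-low. The last 3 named encode small GTPases of the RAS family and Braf a RAF kinase. Without the profiles in which Spry2 was listed at 0, the differences of Lamtor3 and Braf were both 0.87, and that of Cdkn2c, a cell cycle inhibitor described next, was -0.30. The difference of Nras was 0.43 without profiles with Col1a1 or Ibsp at 5 or more. Among cell cycle inhibitors, Cdkn2d (-1.75) and Cdkn2c (-1.12), which act on CDK4 and CDK6, were lower in Spry2-high profiles, whereas Cdkn1b (1.34), which encodes p27, was higher. Mki67, a marker of cycling cells, was detected in 5 and 4 profiles, and no G2/M gene differed by 1. Of the 12 measured G2/M genes, 0 were detected in at least 20% of profiles. A difference of 1 was thus hardly within reach, and its absence does not bear on cycling. Of 12 measured S phase genes, 8 were lower in Spry2-high profiles (median -0.28), beside 5811 of all 9739 genes. Slbp (-1.17), which encodes a histone mRNA-binding protein, and Rfc2 (-1.19), a subunit of the clamp loader of replication, were lower by at least 1. Pcna, another replication gene, was higher (0.58). Without profiles with Col1a1 or Ibsp at 5 or more, the S phase median was -0.06, beside -0.05 over all genes. In that setting the difference was -0.74 for Slbp, -0.76 for Rfc2 and 0.15 for Pcna.

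Signals of the other growth plate pathways differed gene by gene. Of 29 BMP and TGF-beta genes, 20 were lower in Spry2-high profiles (median -0.21), beside 5811 of all 9739 genes. Among the 20 were Id3 (-2.26) and Id1 (-1.31), targets of BMP signalling, and Smad7 (-1.30), its feedback inhibitor. Inhba and Bmpr1a (1.36), a BMP receptor, were higher. In the hedgehog list Smo (-1.47), the signal transducer, lay on the side of Ihh, while the target Ptch1 was detected in 11 and 13 profiles (difference 0.21). In the WNT list Frzb (-1.57), a secreted antagonist, and Wnt4 (-1.24), a ligand, were lower in Spry2-high profiles. Without the profiles with Col1a1 or Ibsp at 5 or more the differences were -1.20 for Id3, -0.42 for Id1, -0.76 for Smo and -0.40 for Frzb, and the median of the BMP and TGF-beta list was -0.03. Cholesterol synthesis genes had a median of 0.01 over 22 genes and divided, with Insig1 (2.16), a regulator of sterol sensing, higher and Stard4 (-1.36) and Ebp (-1.22) lower. Without the same profiles they were 1.37 for Insig1 and -0.63 for Ebp.

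**Figure D4:**
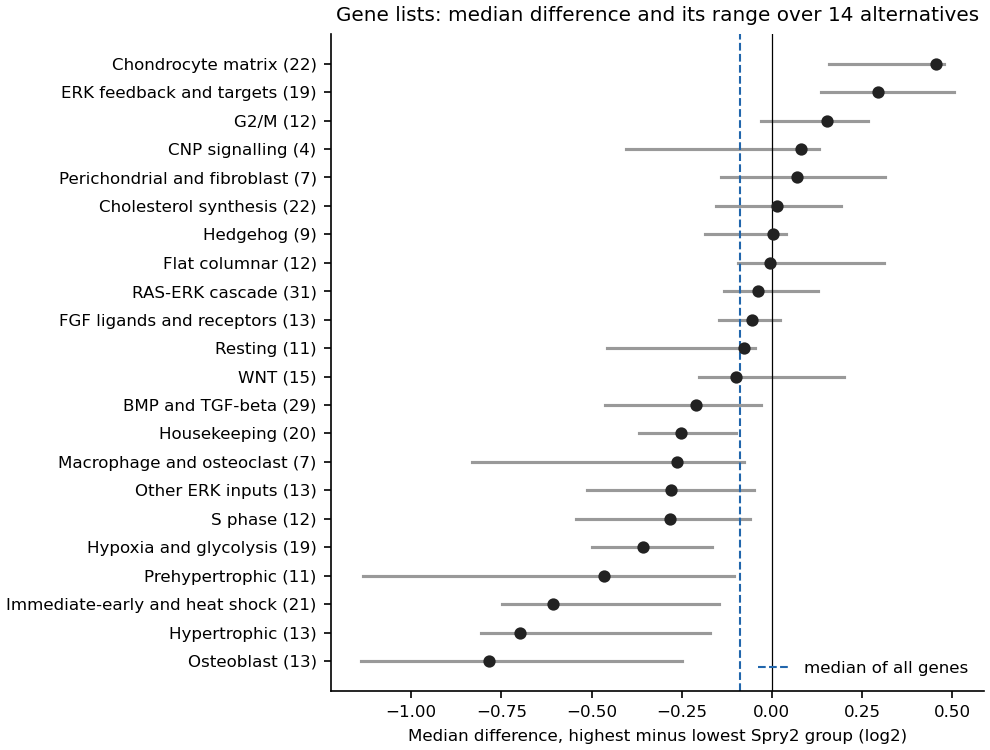
Median difference of 22 of the gene lists with at least 4 measured genes (horizontal axis, log2, highest minus lowest group of Spry2), with the number of genes in brackets, grey bars for the range over 14 alternative settings and a dashed line for the median of all genes. Osteoblast, hypertrophic, immediate-early and prehypertrophic lists lie furthest to the Spry2-low side, and cartilage matrix and ERK feedback lists to the Spry2-high side.

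The genes with the largest differences towards Spry2-high cells included secreted factors and regulators of RNA. Inhba, which encodes the activin A subunit, had in Spry2-low profiles a median of 0 and a highest level of 9.89, with 24 of 44 at 0. In Spry2-high profiles the median was 8.21 and the highest 10.64, with 2 at 0, and the difference of means was 4.68. The middle groups lay between, with means of 4.46 and 5.85. Other secreted products were Tnfaip6 (3.29), a hyaluronan-binding protein of inflammation, and Cthrc1 (3.03), a secreted collagen triple helix protein. Arglu1 (3.81) and Rbm26 (3.33) encode RNA-associated proteins, Rrn3 (3.62) a factor of RNA polymerase I, and Kdm6b (2.93) a histone H3 lysine 27 demethylase. Rap2b (3.39) is a small GTPase of the RAP family and Hmga2 (3.05) a chromatin protein of growing tissues. Trappc6b, Foxn2, Srxn1, Fubp3 and Lyrm4 completed the 14 shown, with differences of 3.28 down to 2.90. Without the profiles with Col1a1 or Ibsp at 5 or more, Hmga2 was at 1.95, Fubp3 at 1.84 and Lyrm4 at 1.86, and without those in which Spry2 was listed at 0, Rrn3 was at 2.32, Rbm26 at 2.13 and Foxn2 at 2.01.

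Towards Spry2-low cells, the 15 genes were led by Col10a1, Cd200 and Smim5 (-3.37), a small membrane protein gene. Hist1h1c (-3.09), a linker histone, Klf3 (-3.02), a Kruppel-like repressor, and Ibsp followed. Vdr (-2.50), the vitamin D receptor, was detected in 38 Spry2-low and 16 Spry2-high profiles, with medians of 4.74 and 0. Gpsm2 (-2.78), which orients the mitotic spindle, and Ptgis (-2.52), the prostacyclin synthase, were also among them. Cep85l, Chp1, Ldlrad4, Fxyd3, Tubb4b and Snap47 had differences of -2.98 to -2.34. For each of these 15 genes the groups overlapped. Without the profiles with Col1a1 or Ibsp at 5 or more the differences were -1.70 for Hist1h1c, -1.71 for Gpsm2, -1.15 for Ptgis and -1.35 for Ldlrad4. For Ibsp it was -0.17, but this setting removes profiles by their level of Ibsp itself. That of Hist1h1c was -2.06 without those in which Spry2 was listed at 0.

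**Figure D5:**
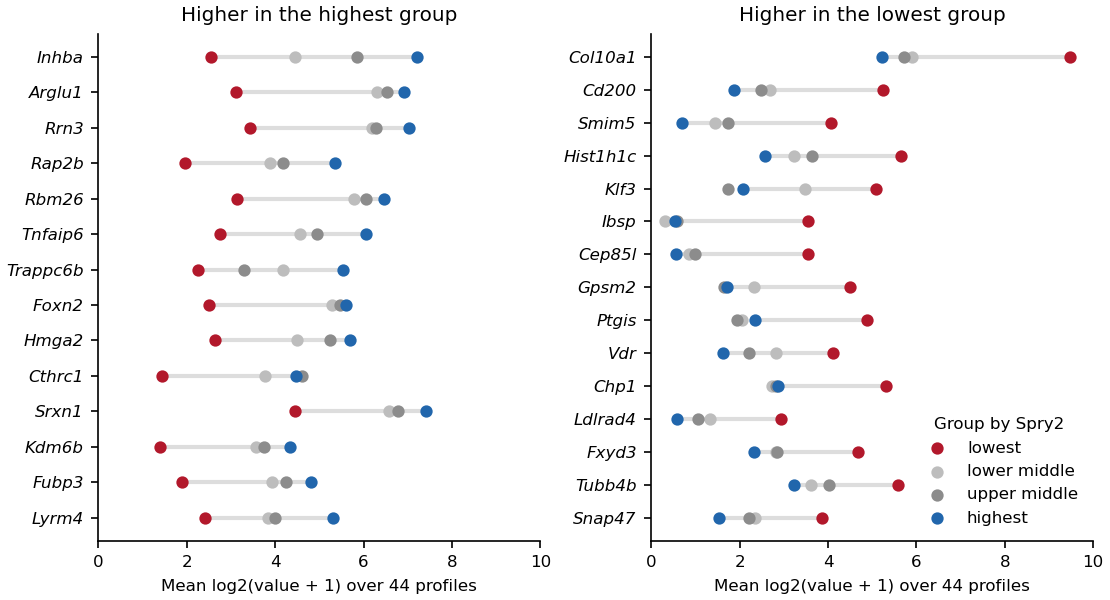
Mean level (horizontal axis, log2(value + 1), over 44 profiles) in each group of Spry2 for 14 of the genes with the largest difference towards the highest group (left) and the 15 towards the lowest (right). The average of the middle groups lies nearer to the highest group than to the lowest in 13 of 14 genes on the left and 15 of 15 on the right.

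The lowest group stood apart more than the others differed among themselves. Between it and the lower middle group 873 genes differed by at least 1 in either direction (8.96%), between it and the upper middle group 866 (8.89%) and between it and the highest 972 (9.98%). Between the lower and upper middle groups the number was 229 (2.35%), between the lower middle and highest 235 (2.41%), and between the upper middle and highest the share was 2.0%. All groups hold 44 profiles, and comparisons that share a group are not independent. Ihh illustrates the pattern, with mean levels of 3.39, 1.14, 1.31 and 1.17 from the lowest to the highest group. Sdc4 had means of 10.63, 12.41, 12.54 and 12.61, and Sox9 of 7.02, 9.12, 9.02 and 9.41. Spry2 itself had means of 2.59, 6.56, 7.55 and 8.59, so the lowest group also spans the widest range of the ranking gene.

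The genes whose levels ran most like Spry2 over all 4 groups were Kdm6b (Spearman's rho 0.59), Arglu1 (0.59), Rrn3 (0.58), Kdelr2 (0.57), Sdc4 (0.56), Rap2b (0.55), Pcnp (0.53), Insig1 (0.53), Rbm15 (0.51) and Twf1 (0.51). Given the number of genes detected, these values were 0.51 to 0.58. Kdm6b ran from 0 to 5.87 (median 1.07) in Spry2-low and from 1.58 to 6.89 (median 4.59) in Spry2-high profiles, with 27 Spry2-low profiles below the lowest Spry2-high one. Kdelr2 is a receptor that returns proteins to the endoplasmic reticulum, and Twf1 is an actin-binding protein. The most opposed genes were Rplp0 (-0.44), Eef2 (-0.44), Peg3 (-0.42), Tceb2 (-0.42), Smim5 (-0.41), Ccdc80 (-0.41), Fau (-0.40), Klf3 (-0.40), Rps15a-ps4 (-0.39) and Rps26 (-0.39). Rplp0, Fau and Rps26 encode ribosomal proteins or a precursor of one, and Eef2 a translation elongation factor. Rps15a-ps4 is named as a pseudogene of a ribosomal protein gene, so its reads may belong to other copies. These are correlations across cells of 1 sample that share scaling, with no plate named.

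Other quantities differed along with the comparison and are given beside it. A mean of 3596 ± 738 genes was detected in Spry2-low and 3397 ± 437 in Spry2-high profiles (SD, n = 44 profiles each), with ranges of 1326 to 4994 and 2217 to 4151. With genes detected regressed out, the difference was -3.71 for Col10a1, -1.91 for Ihh, 2.27 for Sox9 and 4.78 for Inhba. Immediate-early and heat shock genes, which tissue dissociation can induce, had a median difference of -0.61. Of these, 15 of 21 measured genes were lower in Spry2-high profiles, beside 5811 of all 9739 genes. Atf3 (-1.78), Nr4a1 (-1.56) and Fosb (-1.32) were lower, Hsph1 (1.26) was higher, and Fos had medians of 8.54 and 7.11. The median of the list was -0.21 without the profiles with Col1a1 or Ibsp at 5 or more and -0.17 without those in which Spry2 was listed at 0. In the first of these settings the difference was -0.56 for both Atf3 and Fosb. The mean level over the list ran from 1.03 to 6.10 in Spry2-low and from 1.97 to 4.61 in Spry2-high profiles, and its part in the differences was not tested.

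Bone genes also lay on the Spry2-low side. Of 13 measured osteoblast genes, 12 were lower in Spry2-high profiles and 6 by at least 1, with a median of -0.78 that was -0.29 without the profiles with Col1a1 or Ibsp at 5 or more. The list shares Ibsp, Sp7 and Dmp1 with the zone lists, and it holds both genes by which those profiles were left out, Col1a1 and Ibsp. Its mean level ran from 1.02 to 7.95 in Spry2-low and from 1.40 to 3.73 in Spry2-high profiles. Col1a1, which encodes bone collagen, was detected in 13 Spry2-low and 1 Spry2-high profiles, with a median of 0 in both. Col1a1 or Ibsp reached 5 in 21 profiles, 15 of them Spry2-low and 1 Spry2-high. Without the profiles with Col1a1 at 5 or more, and with the groups drawn again, the differences were -4.16 for Col10a1, -1.89 for Ihh and -2.36 for Ibsp. Without those with either Col1a1 or Ibsp at 5 or more they were -3.24 for Col10a1, -0.96 for Ihh, -0.29 for Spp1, 1.65 for Sox9 and 4.21 for Inhba. Of the 93 named genes that differed by at least 1, 61 still did so in the same direction without these 21 profiles, and 87 without those with Col1a1 alone. Endothelial genes (2 of 10 measured) were at or near 0 in most profiles of both groups: Pecam1 was detected in 2 and 1. Of 7 measured macrophage and osteoclast genes, 6 were lower in Spry2-high profiles, beside 5811 of all 9739 genes. Only 1 of the 7 was detected in at least 20% of profiles. Their median was -0.26, or -0.08 without the profiles with Col1a1 or Ibsp at 5 or more. Csf1r was detected in 4 Spry2-low and 1 Spry2-high profiles, Cd68 in 10 and 5, and Ctsk, which encodes the protease cathepsin K, in 32 and 28 (difference -0.83). The part of these genes in the differences was not tested. The only measured lymphoid gene, Cd79a, was detected in 0 and 2.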

How the data were processed

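Single cells of the microdissected tibial growth plate were profiled as full-length polyA cDNA (SMARTer) with Nextera XT libraries, per the labels' protocols. TopHat and mm10 are named in the submitters' processing notes. Quantifier, annotation, filters: not given in the sources used here. Deposited log2 values ran from 0 to 15.14 and had been scaled for depth by the authors: back-transformed totals were 394406 to 616257 with base 2 and a pseudocount of 1. Sequencing depth per cell is therefore unknown. The base and the pseudocount were inferred from the values, of which 62.3% are 0. The 1 row without a gene name was left out, and 9739 genes remained.

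Columns correlating above 0.95 (52 columns in 23 sets, r at least 0.964; other pairs at most 0.686) were averaged and Cell_204, a mixed column, was dropped, which left 187 profiles. The 176 kept profiles (Acan at least 5) were ranked by Spry2, and the lowest and highest 25% compared by mean, SD, range and detected share, with 95% exact binomial intervals. No test was run, since all cells are 1 sample with no animal named. The members and lists were chosen with earlier results of these data known. The text names the 15 genes of largest difference in each direction among those detected in at least 50% of either group, the 10 highest and lowest by rho among genes detected in at least 20%, up to 4 members per list, and fixed genes. Some results that this rule selects are not reported here. Other list members given as examples (Fosl1, Col2a1, Rras, Cdkn2d, Spred3, Smad7, Xylt1, Col1a1, Pecam1, Csf1r, Cd68, Ctsk, Cd79a) and the subsets of the Spry2-low group were chosen after their values were seen. The steps were tested on simulated data. No doublet caller was run. The software was NetworkX 3.6.1 and matplotlib 3.10.9 with SciPy 1.17.1, pandas 2.3.3 and NumPy 2.4.6, run under Python 3.11.15.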

Additional observations from a re-analysis of the deposited data

How the results depend on the processing

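The comparison was repeated under 14 settings: repeats kept apart, the mixed column kept, Acan limits of 3 and 7, wider groups (58 or 88 profiles at each end), genes detected regressed out, the 10% of profiles with fewest genes left out, upper-quartile scaling, a pseudocount of 0.1, genes detected in at least 20% of profiles, and profiles left out for Col1a1 or Ibsp, for Col1a1 alone or for Spry2 at 0 (the last pair added after the data were seen). Of the 93 named genes that differed by at least 1, 91 had the same sign in each setting, while the number that still differed by at least 1 was 44 with 88 profiles at each end, 61 without Col1a1 or Ibsp at 5 or more, 71 without Spry2 at 0 and 70 to 93 in the others. The exceptions came with 88 profiles at each end, where Col5a2 was 0.066 and Stard4 0.037. The Acan limit of 3 kept the same profiles, and the 20% limit on detection only left genes out. Neither could change the difference of a named gene, so neither tests these genes, and the count of 93 came from them. The 93 genes also include genes named for a large difference in these same data. The share of genes higher by at least 1 in Spry2-high profiles, 3.99%, became 2.55% with 58 profiles at each end, 1.19% with 88, 8.09% with a pseudocount of 0.1 and 7.16% among genes detected in at least 20%. The share of lower ones, 5.99%, became 3.38% with 58 profiles at each end, 0.78% with 88, 14.2% with a pseudocount of 0.1, 10.1% among genes detected in at least 20%, 3.88% with genes detected regressed out and 3.37% without profiles with Col1a1 or Ibsp at 5 or more. Wider groups bring in middle profiles, and the limit on detection lowers the number of genes tested. The cause of the other changes was not tested. The prehypertrophic median ran from -1.13 to -0.11, the hypertrophic from -0.81 to -0.17, the resting from -0.46 to -0.05 and that of ERK feedback genes from 0.14 to 0.51, with no change of sign. The hypertrophic value of -0.17 came from the setting that limits Ibsp, a member of that list. The columnar median, from -0.09 to 0.31, changed sign in 9 settings. Another limit for detection left the means as they are, and at 10 Ibsp was detected in 36.4% of Spry2-low and 4.55% of Spry2-high profiles. No paired analysis was possible because all cells belong to 1 group, and no replicate can be left out. Depth per cell is unknown, so the precision of low values, zeros included, cannot be given.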
